A study of Mus musculus with 6 samples.

Results

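The genes described here encode the MAP kinase kinases, the middle tier of the MAP kinase cascades, and include Map2k4, the gene targeted by a short hairpin RNA (shRNA) in this study. Members were chosen by symbol: all probe sets of the array table whose platform annotation gives 1 gene symbol, that symbol being Map2k1 to Map2k7. The rule found 12 of 45101 probe sets, covering 6 of the 7 genes (of 18193 genes with a probe set of their own): 1 for Map2k1, 2 each for Map2k2, Map2k3 and Map2k4, 4 for Map2k5 and 1 for Map2k6. Map2k7 is not analysed here. RNA came from 393P, a mass population of tumour cells cultured from primary lung tumours of p53R172H∆g/+ K-rasLA1/+ mice, so both groups share these alleles. One group (393P-scr) carried a control vector with a scrambled sequence and the other (393P-shZ) a vector expressing shRNA against MKK4, with 3 arrays in each, which the labels call triplicate cultures. The labels name a single MKK4 construct, and they differ on whether it entered by retroviral infection or by Lipofectamine transfection. Each group is 1 cell population, so the p-values below speak only of how its parallel cultures vary.

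In each MAP kinase cascade a MAP3K phosphorylates a MAP2K, which in turn phosphorylates a MAP kinase on both a threonine and a tyrosine. The MAP2K tier is selective: Map2k1 and Map2k2 encode MEK1 and MEK2, which activate ERK1 and ERK2, Map2k5 encodes MEK5, which activates ERK5, Map2k3 and Map2k6 encode MKK3 and MKK6, which activate p38, and Map2k4 and Map2k7 encode the JNK activators MKK4 and MKK7, of which MKK4 can also activate p38. The comparison addressed how far the Map2k4 transcript was depleted and whether the transcripts of the other MAP2Ks were higher in the depleted cells.

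Promoter sequence is shown for Map2k4 and Map2k6, the members whose transcripts passed the test. RefSeq (GRCm38.p6) gives promoter windows of 300 bases, 250 before to 50 after a start site, for all 7 genes, 11 in all, of which 2 belong to Map2k4 and 3 to Map2k6. The outermost window of each gene is printed on its own strand, and capitals mark an AP-1 motif, spelled TGANTCA and searched on both strands.
Map2k4, chr11:65788310-65788609, minus strand: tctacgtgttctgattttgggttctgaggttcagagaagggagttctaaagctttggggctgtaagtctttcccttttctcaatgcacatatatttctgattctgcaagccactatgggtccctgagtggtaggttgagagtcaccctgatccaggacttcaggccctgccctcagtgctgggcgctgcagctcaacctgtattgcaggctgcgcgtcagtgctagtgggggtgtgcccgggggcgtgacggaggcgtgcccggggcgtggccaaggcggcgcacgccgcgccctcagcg
Map2k6, chr11:110398852-110399151, plus strand: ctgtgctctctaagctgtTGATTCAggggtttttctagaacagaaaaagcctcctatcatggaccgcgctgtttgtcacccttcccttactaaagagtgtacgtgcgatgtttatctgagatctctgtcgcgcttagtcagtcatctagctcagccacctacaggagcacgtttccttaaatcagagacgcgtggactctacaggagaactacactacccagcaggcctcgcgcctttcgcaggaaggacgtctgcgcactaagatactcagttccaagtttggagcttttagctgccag
The Map2k6 window held 1 AP-1 motif, between 232 and 226 bases before the start, and the Map2k4 windows held none of these letters. Among the 11 windows of the family 2 held the motif, 1 of Map2k6 and 1 of Map2k7, compared with 7.81% of 32851 windows of the same length over all genes. The CRE motif TGACGTCA, which overlaps no AP-1 motif, was in 0 of the 11 windows and in 1.79% of all windows. These matches describe letters and say nothing of binding.

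Both Map2k4 probe sets were lower in every shRNA culture. On the brighter one (1451982_at) the control arrays gave 700.3, 638 and 597 intensity units and the shRNA arrays 240.1, 295 and 287. The dimmer one (1426233_at) gave 212, 209 and 201 units in controls and 90.6, 90.9 and 89.5 with the shRNA. The groups lay far apart on both, and the shRNA arrays were almost alike on the dimmer probe set. Group means went from 645 ± 51.8 to 274 ± 29.7 units (SD, n = 3) on the brighter probe set, which is -1.21 on the log2 scale (SE 0.079) with a limma adjusted p of 0.000386. On the dimmer one they went from 207 ± 5.89 to 90.3 ± 0.741 units (SD, n = 3), or by -1.08 on the log2 scale (SE 0.070, limma adjusted p = 0.000375). Two-sided and exact, a permutation test of either probe set returned p = 0.1, the smallest that 3 against 3 allows. Only 6 of 45037 probe sets fell further than the brighter Map2k4 probe set and 11 further than the dimmer one. In RNA of a whole culture, fewer cells carrying Map2k4 RNA and less of it per cell cannot be told apart.

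The Map2k4 signal that remained was 42.5% ± 4.60 of the control mean (SD, n = 3) on the brighter probe set, from 37.2% to 45.7% over the 3 shRNA arrays. On the dimmer it was 43.6% ± 0.357 (SD, n = 3). The trpnX probe sets measure a bacterial transcript with no mouse counterpart and reached at most 39.5 units on any array. The shRNA mean was 6.95 times that value on the brighter Map2k4 probe set and 2.29 times on the dimmer. With each array's mean trpnX intensity subtracted, a step chosen after seeing the data, the remaining signal was 40.1% ± 4.69 and 35.9% ± 1.95 (SD, n = 3). Within each array the distance between the 2 probe sets on the log2 scale was 1.57 ± 0.062 in controls and 1.44 ± 0.117 with the shRNA (SD, n = 3). The difference was -0.13 (exact two-sided permutation p = 0.1). Its size and sign depended on the constant added before log2 was taken (pseudocount). The brighter and dimmer probe sets changed by -1.25 and -1.20 with a pseudocount of 1, and by -1.09 and -0.82 with 64. After the trpnX subtraction the changes were -1.32 and -1.48. The difference therefore does not show that the 2 probe sets moved apart.

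Map2k6 was the other member that changed, and it rose. Its single probe set (1426850_a_at) gave 69.5, 77.2 and 76.9 units in the control cultures and 112, 149 and 126 with the shRNA. The groups did not overlap: the control values lay below the median of their arrays and the shRNA values above it, those medians running from 92 to 95.76 units over the 6 arrays. The mean went from 74.5 ± 4.35 to 129 ± 18.7 units (SD, n = 3), a 1.58-fold rise on the log2(intensity + 16) scale, or 0.66 (SE 0.112, 95% interval 0.40 to 0.92, limma adjusted p = 0.0153). Of 45037 probe sets 318 rose further. The control level was 1.89 times the highest trpnX value, and with the mean trpnX intensity subtracted the shRNA cultures held 193% ± 36.4 of the control mean, compared with 173% ± 25.2 as deposited (SD, n = 3).

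The Map2k6 call did not hold when any 1 of 5 arrays was left out: the limma adjusted p was 0.0652, 0.0626 and 0.0598 without control replicate 1, 2 or 3, and 0.066 and 0.0707 without shRNA replicate 2 or 3, while without shRNA replicate 1 it was 0.0205. The rise itself was 0.57 to 0.76 in these 6 fits. The shRNA arrays differed from each other more at this probe set than at any other member, with a coefficient of variation of 14.5%, compared with 5.84% in the controls. Among them shRNA replicate 1 had the lowest value of both Map2k6 (112 units) and the brighter Map2k4 probe set (240.1 units). As deposited, it was also lowest for Map2k1 (2980.2 units), the brighter Map2k2 probe set (669) and both Map2k3 probe sets (1262 and 408). The same held for Map2k5 probe sets 1417854_at, 1455941_s_at and 1453712_a_at (328, 314 and 126 units). It was not lowest on the dimmer Map2k2 probe set, Map2k5 1430180_at or the dimmer Map2k4 probe set. The dimmer Map2k4 probe set showed almost no spread over the shRNA arrays (89.5 to 90.9 units).

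**Figure D1:**
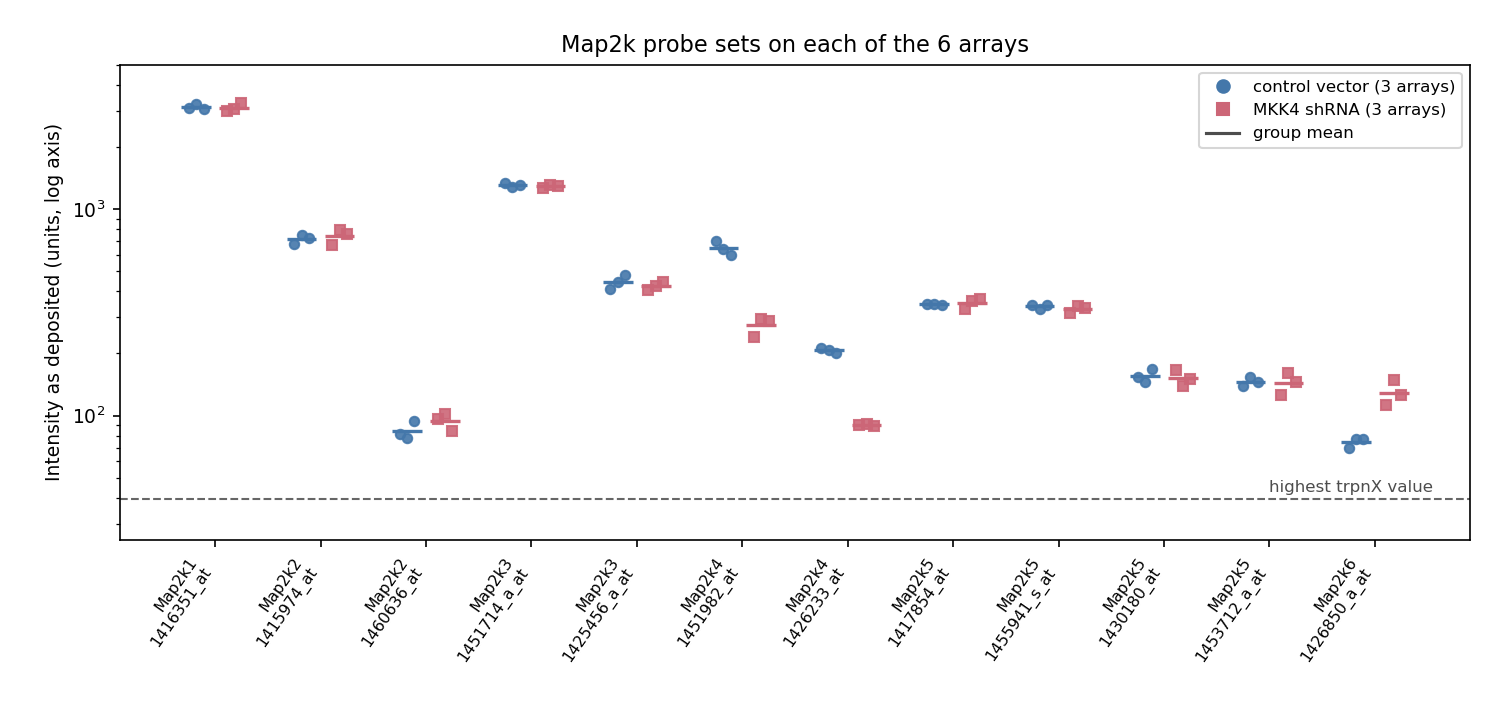
Intensity as deposited (log axis) of the 12 Map2k probe sets on the 3 control (circles) and 3 shRNA arrays (squares), with group means as bars and the highest trpnX value, 39.5 units, as a dashed line. The groups separate on both Map2k4 probe sets and on Map2k6, and on no other probe set as deposited.

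Map2k3, which like Map2k6 encodes an activator of p38, showed no such rise. Its brighter probe set (1451714_a_at) gave 1332, 1287 and 1305 units in controls and 1262, 1309.7 and 1294 with the shRNA. The dimmer one (1425456_a_at) gave 409.8, 444 and 479 units in controls and 408, 422 and 444 with the shRNA. The groups overlapped on both, and the log2 changes were -0.04 (95% interval -0.11 to 0.04) and -0.08 (-0.24 to 0.09), with limma adjusted p of 0.642 and 0.65. The upper limits correspond to rises of 1.03-fold and 1.06-fold. With 1 array left out at a time, neither the sign nor the call changed on either probe set.

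No probe set of the MEK genes of the ERK pathway was called by limma. The single Map2k1 probe set (1416351_at) gave 3079.8, 3229.99 and 3058 units in controls and 2980.2, 3052 and 3267 with the shRNA. The groups overlapped fully, and the log2 change was -0.02 (95% interval -0.12 to 0.08, limma adjusted p = 0.855). Map2k2 gave 674, 752 and 727 units in controls and 669, 794 and 761 with the shRNA on its brighter probe set (1415974_at). Its dimmer probe set (1460636_at) gave 81.4, 77.8 and 94.1 units in controls and 96.2, 102 and 84.4 with the shRNA. These groups also overlapped, with log2 changes of 0.02 (-0.12 to 0.16, limma adjusted p = 0.895) and 0.13 (-0.11 to 0.37, limma adjusted p = 0.599). The interval of the dimmer Map2k2 probe set was the widest among the MEK genes. It reaches a rise of 1.29-fold, so a rise of up to that size was not excluded there.

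Map2k5, whose product activates ERK5, was read by 4 probe sets, and none passed the test. The brightest (1417854_at) gave 349, 348 and 345 units in controls and 328, 360.4 and 367 with the shRNA, means of 347 ± 2.31 and 352 ± 20.7 units (SD, n = 3). Its log2 change was 0.00 to 2 decimals, with a 95% interval of -0.12 to 0.12. The probe set of similar brightness (1455941_s_at) gave 344, 329 and 345 units in controls and 314, 339 and 332 with the shRNA. These values overlapped as deposited and separated after quantile normalization, with a log2 change of -0.07 (95% interval -0.18 to 0.05, limma adjusted p = 0.568). Its suffix _s_at marks probe sets that can match transcripts of several genes. The dimmest pair, 1430180_at and 1453712_a_at, went from 156 ± 11.5 to 152 ± 13.5 units and from 146 ± 7.63 to 144 ± 17.4 units (SD, n = 3), log2 changes of -0.04 and -0.03 with intervals from -0.27 to 0.19 over both. The distance between the brightest Map2k5 probe set and each of the other 3 shifted by 0.03 to 0.07 on the log2 scale between groups (exact two-sided permutation p = 0.2 to 0.8).

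Over the family, limma with Benjamini-Hochberg adjustment over 45037 probe sets called 3 of the 12 changed, 2 lower (both Map2k4) and 1 higher (Map2k6), where 6.37% of all probe sets were called, 2.79% lower and 3.57% higher. The normalized groups did not overlap on 4 of 12, compared with 23.1% of all probe sets. Of the 9 probe sets outside Map2k4 and Map2k6, 7 had a log2 change below 0 and 2 above it after normalization (1 of the 7, the brightest Map2k5 probe set, at 0.00 to 2 decimals and higher in its mean deposited intensity), none with an adjusted p under 0.568 or an unadjusted p under 0.05, and their 95% intervals lay between -0.27 and 0.37. The median size of change of the 10 probe sets outside Map2k4 was 0.04 on the log2 scale, and that of all probe sets was 0.10. These medians were not matched for brightness: all of the 10 but the dimmer Map2k2 probe set were brighter than the median probe set. Those 10 had a median change of -0.03, and all probe sets -0.01. None of the 12 probe sets had a group mean within the range of the trpnX controls. That range comes from 3 probe sets, so a level above it does not by itself show that a transcript was detected.

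**Figure D2:**
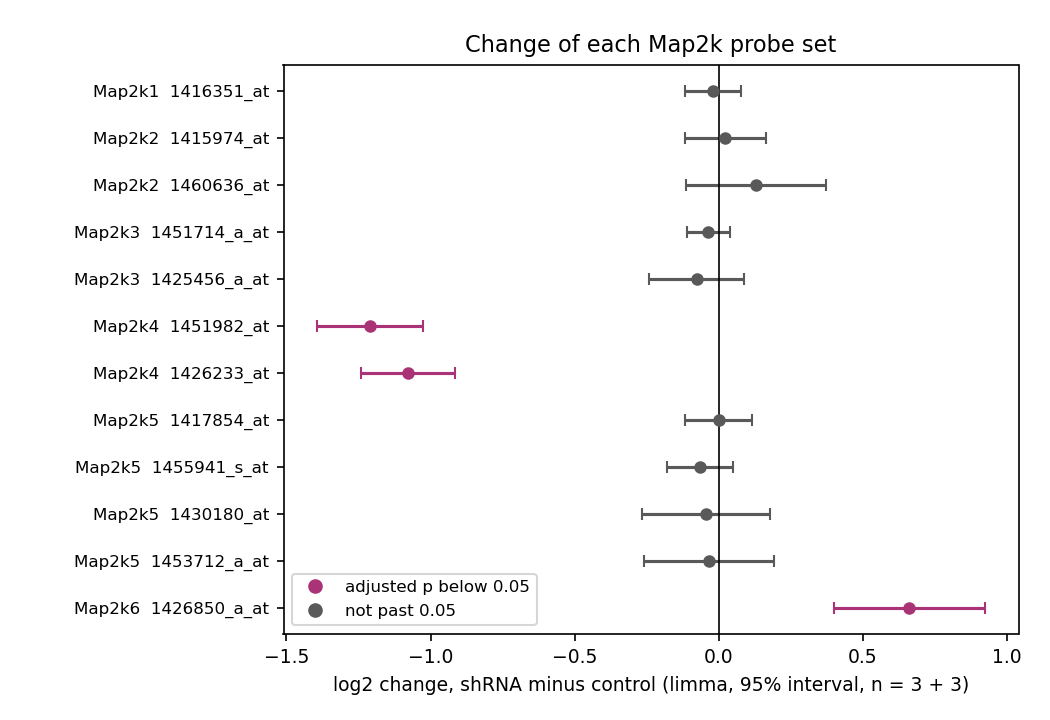
Log2 change (shRNA minus control, limma) of each of the 12 Map2k probe sets with its 95% interval, 3 arrays per group. Both Map2k4 probe sets lie near -1.21 and -1.08 and Map2k6 at 0.66, and the intervals of the other 9 include 0.

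Map2k3, Map2k4 and Map2k6 lie on chromosome 11 (names and chromosomes from GRCm38.p6). The median log2 change of its 2724 probe sets was 0.05, the highest of 20 chromosomes, with chromosomes 13 and 15 also at 0.05. After each chromosome was centred on its own median in each array, Map2k6 still rose by 0.63 (limma adjusted p = 0.0165), the Map2k4 probe sets stayed called, and neither Map2k3 probe set was called.

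The arrays as a whole were alike: any 2 correlated at r = 0.990 to 0.995 over all tested probe sets. Among the markers of epithelium, Krt18, a keratin gene, reached 13878 to 14496 units, Sftpb, a surfactant protein gene, 241 to 291 units, and Nkx2-1, the lung lineage transcription factor gene, 1 to 3.36 units. Of 13 epithelial markers 4 fell (Epcam, Cdh1, Cldn7 and Esrp1) and 1 rose (Krt19), where 11.8% of all genes were called, and their summed level was 59041 to 59885 units in controls and 58351 to 59714 with the shRNA. No fibroblast (9 measured), leukocyte (7) or endothelial (6) marker was called by limma (1, 0 and 0 at an unadjusted p under 0.05), and 3 of each list were within the trpnX range in both groups. Their summed levels overlapped between groups, 674 to 730.4 units in controls and 638 to 733 with the shRNA for fibroblast, 1013 to 1095 and 919.8 to 1131 for leukocyte, and 571 to 713 and 517 to 669 for endothelial markers. The T cell gene Cd3e, the macrophage gene Lyz2 and the endothelial gene Tie1 lay between 1 and 10.3 units on every array, where 1 is the lowest value in the table. Other members of these lists were above background: the macrophage genes Csf1r and Cd68 gave 633 to 849.9 and 126 to 153 units, the B cell gene Cd79a 89.7 to 107 units, and the endothelial genes Kdr and Cdh5 277 to 456 and 94.2 to 126 units. The part of epithelial marker changes in the Map2k values was not tested.

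Around the MAP2K tier, 68 of 77 listed genes of the cascades were measured, each by its brightest probe set, and 5 rose and 10 fell, 22.1% of them, where limma called 11.8% of 18193 genes (6.37% higher and 5.39% lower). The list's median log2 change was -0.05, that of all genes -0.01. Several of these genes are read by further probe sets that did not move with the brightest one, so the values below hold for the brightest probe set unless another is named.

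Among 20 MAP3K genes, which encode the kinases above the MAP2Ks, Araf, a RAF kinase gene, rose from 352 ± 26.1 to 447 ± 11.02 units (SD, n = 3), or by 0.32 on the log2 scale, and Map3k9, a mixed lineage kinase gene, fell from 325 ± 11.7 to 276 ± 3.03 units (-0.24). The 4 other Araf probe sets gave -0.10 to 0.06 and the other Map3k9 probe sets 0.01 and 0.13, none called. Among 11 MAP kinase genes Mapk13, the p38 delta gene, fell from 1746 ± 37.5 to 1129 ± 77.2 units (SD, n = 3), or by -0.63 on the log2 scale (limma adjusted p = 8.5e-05). Mapk11, the p38 beta gene, rose by 0.30 and Mapk6, the ERK3 gene, by 0.28. Neither the other Mapk11 probe set (-0.12) nor the other Mapk6 probe sets (-0.01 to 0.12) were called. The p38 alpha gene Mapk14 gave -0.05 (95% interval -0.16 to 0.05, limma adjusted p = 0.566) and the JNK genes Mapk8 and Mapk9 gave 0.22 (0.04 to 0.40, 0.131) and 0.11 (-0.04 to 0.26, 0.378). A further Mapk8 probe set rose by 0.34, from 283 to 366 units (limma adjusted p = 0.026). The remaining Mapk8 probe sets gave -0.19 to 0.14 and the other Mapk9 probe sets -0.23 and 0.19, none called.

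Of 8 scaffold genes, which hold cascade kinases together, the JNK scaffold gene Mapk8ip1 fell by 0.59, from 251 ± 20.1 to 165 ± 10.7 units (SD, n = 3), while its other probe set gave 0.09. None of 7 genes of MAP kinase-activated kinases was called by limma, with 4 at an unadjusted p under 0.05. Of 8 nuclear substrates the AP-1 genes Jun and Jund fell: Jun from 511 ± 20.4 to 391 ± 9.53 units (SD, n = 3; -0.39, limma adjusted p = 0.00198), with -0.41 on its other probe set, where it was not called, and Jund by 0.27, with 0.19 on its other one. Of 14 phosphatase genes 7 were called. Among them 5 fell, Dusp1 (-0.57), Dusp16 (-0.44) and Dusp2 (-0.39) furthest, and 2 rose, Dusp14 (0.34) and Dusp4 (0.15). The dual specificity phosphatases remove the phosphates that MAP2Ks add.

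**Figure D3:**
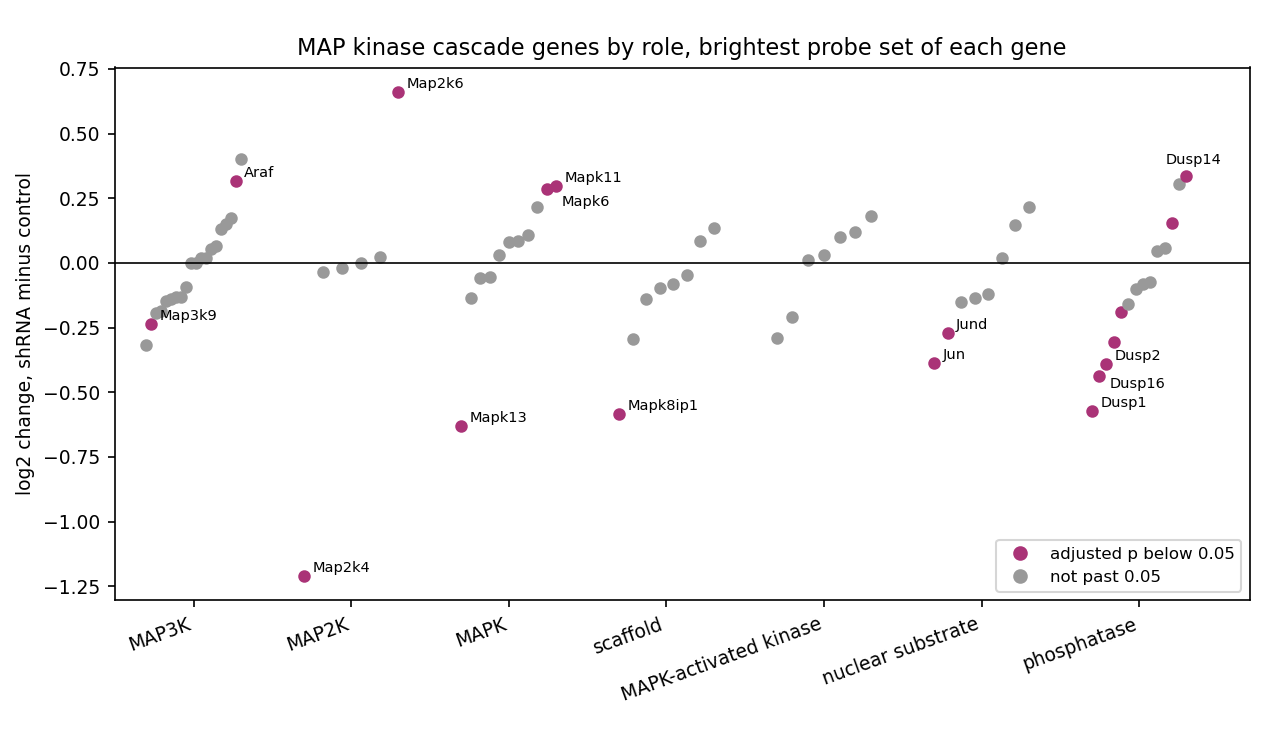
Log2 change (shRNA minus control) of each measured cascade gene by role, on its brightest probe set, coloured where the limma adjusted p was below 0.05; in the MAP2K column 4 genes sit near 0 between Map2k4 (-1.21) and Map2k6 (0.66). Names mark the called genes described in the text, Dusp4 aside.

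Several of these calls passed or missed the threshold depending on the setting, in part with little change in size. With all probe sets of a gene averaged, the change shrank and was not called for Araf (0.05, limma adjusted p = 0.66), Map3k9 (-0.03, 0.846), Mapk11 (0.09, 0.532), Mapk6 (0.12, 0.294), Mapk8ip1 (-0.25, 0.165) and Jund (-0.04, 0.663). Dusp16 was not called either (limma adjusted p = 0.0548), but its averaged change of -0.42 was close to the -0.44 of its brightest probe set. Mapk13, Jun, Dusp1 and Dusp14 were called in all 16 other settings. Of these, Mapk13, Dusp1 and Dusp14 had no other probe set, so averaging could not alter their changes (-0.63, -0.57 and 0.34). When 1 array was left out, calls were lost with the adjusted p between 0.0536 and 0.115 while the changes stayed near those given above. Map3k9 was not called without any of the 6 arrays (-0.26 to -0.22), and Araf was not called without control replicate 3 (0.31) or shRNA replicate 2 (0.32). Mapk11 lost its call without control replicates 1 and 3 and shRNA replicates 2 and 3 (0.27 to 0.30), and Mapk6 without control replicate 3 and shRNA replicates 1 and 3 (0.23 to 0.29). Jund lost its call without control replicates 2 and 3 and shRNA replicate 2 (-0.28 to -0.25), Dusp4 without control replicate 3 and any shRNA replicate (0.15 to 0.16), and Dusp2 without each array but shRNA replicate 1 (-0.42 to -0.33). Mapk8 was called without shRNA replicate 1 (0.30, limma adjusted p = 0.0386) and with the dimmer genes left out (0.22, 0.045). Chromosome centring ended the calls of Mapk11 (limma adjusted p = 0.0631) and Map3k9 (0.11), leaving out the trend of the prior variance those of Mapk6 (0.0754), Jund (0.0828) and Dusp4 (0.133), equal array medians those of Dusp4 (0.0561) and Map3k9 (0.0918), and the values as deposited that of Map3k9 (0.0696).

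As a description of its pattern over the 6 arrays, the brighter Map2k4 probe set was followed most closely by Nfe2l3, which encodes a transcription factor related to NFE2 (Pearson r = 0.999), Togaram1 (0.998) and Sf3b6, a gene of the spliceosome (0.998), among 9096 genes brighter than the median gene. Nfe2l3 went from 508, 493 and 469 units in controls to 245, 289 and 288 with the shRNA, and the changes of the 3 genes were -0.82, -0.43 and -0.25 on the log2 scale. With all probe sets of a gene averaged, Togaram1 gave -0.06 and was not called (limma adjusted p = 0.697). Sf3b6 gave -0.20 and was not called (limma adjusted p = 0.0522), although 2 of its other probe sets fell by 0.31 and 0.26 (limma adjusted p = 0.0043 each) and the last one was at 5.9 and 5.69 units, within the trpnX range. Such an r follows mainly from the gap between the groups: 884 of the 9096 genes had an r above 0.9 and 926 below -0.9.

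**Figure D4:**
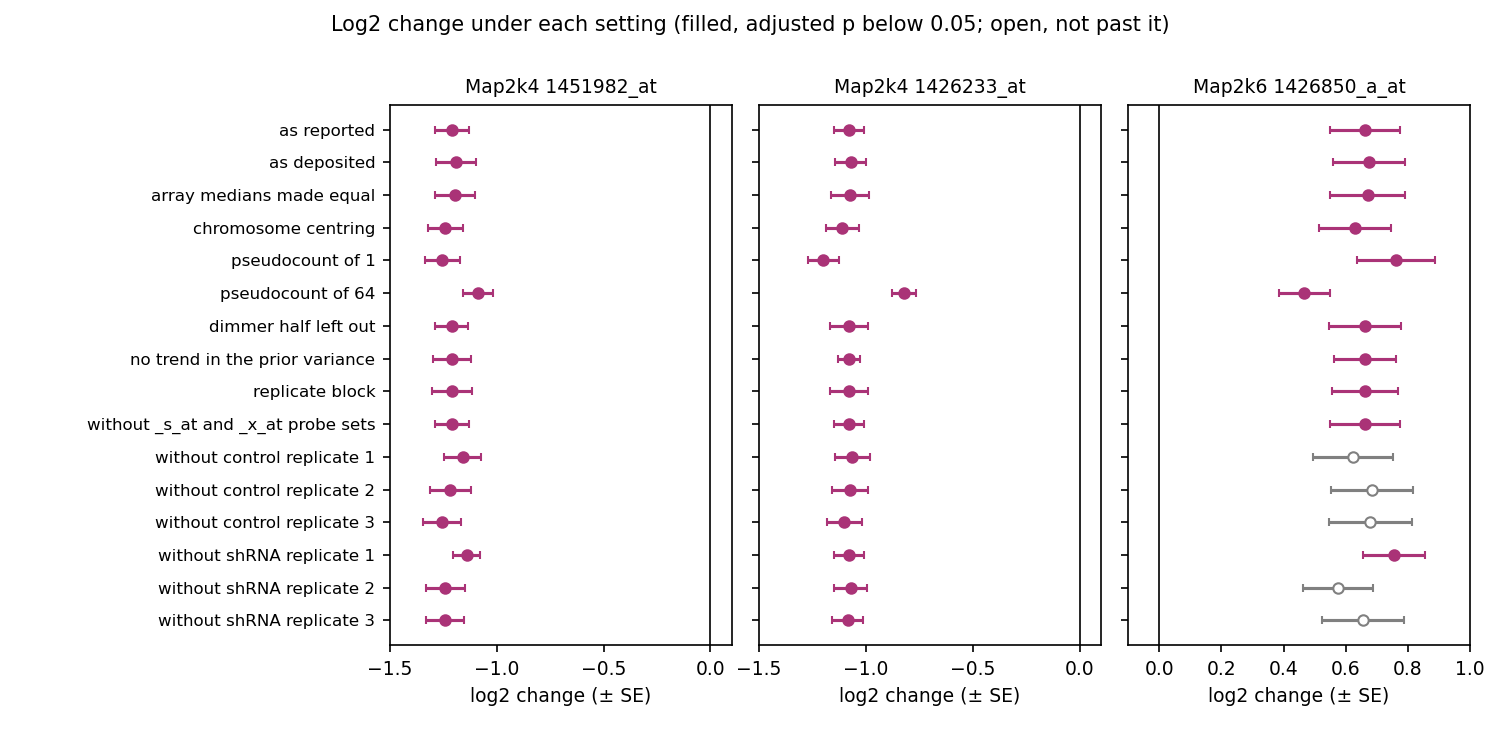
Log2 change (± SE) of both Map2k4 probe sets and of Map2k6 as reported and under 15 other settings; filled points passed a limma adjusted p of 0.05 and open points did not. Map2k4 passed throughout, while Map2k6 kept its direction, between 0.47 and 0.76, and did not pass in 5 of the fits that leave out 1 array.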

How the data were processed

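Biotinylated cRNA made from the RNA of 6 cultures was measured on Affymetrix arrays, per the labels' protocols. Each deposited value is the linear intensity of a probe set; how the authors summarised probes, corrected the background and normalized is not given in the sources used here. A pseudocount of 16 was added, log2 taken and quantile normalization applied with limma 3.58.1 in R 4.3.3; fold changes refer to log2(intensity + 16) and so understate those of dim genes, and means ± SD are of the deposited intensities. No test included the 64 control probe sets. The test was limma's (lmFit, then eBayes with trend) and Benjamini-Hochberg adjustment at 0.05 over all 45037 probe sets, or over 18193 genes (brightest probe set of each) for the cascade and marker lists. The test was checked on simulated data. The number of arrays limits the precision. Intensities of different probe sets are not on a common scale, since probes differ in response, and no order of transcript levels between genes was drawn from them.

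Named genes were all members, up to 3 called genes in each direction per cascade list, Mapk8, Mapk9, Mapk14 and Jun, and the 3 genes most correlated with Map2k4 among those above the median. Listed genes absent from the annotated table were not analysed here. The members, lists and alternatives were chosen with earlier results of these data known. Alternatives were other scalings, chromosome centring, pseudocounts of 1 and 64, dropping the dimmer probe sets or those ending in _s_at or _x_at, no trend, a replicate block, averaging probe sets and leaving out each array.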

Additional observations from a re-analysis of the deposited data

How the results depend on the processing

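The Map2k4 fall was called under all 15 alternatives on both probe sets (log2 changes of -1.26 to -1.09 and -1.20 to -0.82), and the Map2k6 rise under 10. The 9 other Map2k probe sets were called under none; 5 of them, the brightest and both dimmest Map2k5 probe sets, the brighter Map2k2 one and Map2k1, changed sign between settings. The count of Map2k probe sets called was 2 to 3 without 1 array. The count over all probe sets, 2868, was 1842 as deposited (1229 higher and 613 lower, compared with 1610 and 1258), 941 when the prior variance had no trend and 1139 under the replicate block. Without control replicates 1, 2 and 3 it was 1757, 1389 and 1540, and without shRNA replicates 1, 2 and 3 it was 1867, 1183 and 1329. The count of genes, 2139, was 1127 without a trend and 1206 with the block; it ran from 1158 to 1684 without 1 array, being 1359 without control replicate 2, 1324 without control replicate 3, and 1158 and 1256 without shRNA replicates 2 and 3. The 15 called cascade genes became 26 of 50 without the dimmer genes, a setting in which 2630 of all 9097 genes were called. The cascade count was 9 with the replicate block, 8 with probe sets averaged (1539 of all 18193 genes) and 9 to 13 without 1 array. The 9 among the latter came without control replicate 3, shRNA replicate 2 or shRNA replicate 3.

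The replicate numbers showed no sign of pairing: deviations from the group means correlated at -0.03, -0.01 and -0.11 for the same number, and no control array correlated best with its own. With 3 arrays per group, this cannot show that the cultures were unpaired. With the replicate block Map2k6 had a limma adjusted p of 0.046, and Mapk6 (0.0503), Jund (0.0556), Mapk11 (0.0638), Dusp4 (0.0742) and Map3k9 (0.114) were not called. Mapk14 changed sign with probe sets averaged (0.0039) and was called in neither. The trpnX subtraction moved the remaining Map2k4 signal on the dimmer probe set to 35.9%.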

Other observations

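Map2k3os, annotated as the opposite strand transcript of Map2k3, has a probe set of its own outside the family rule. It gave 720.3 ± 35.5 units in control cultures and 704 ± 33.8 with the shRNA (SD, n = 3), a log2 change of -0.06 (95% interval -0.20 to 0.09, limma adjusted p = 0.727), and the groups overlapped.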
